A study of Mus musculus with 2 samples.

Results

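The transcripts of 7 enzymes of arginine, heme and prostaglandin metabolism were followed in single cells of mouse brain carrying G422 glioma. The genes were taken by name, 7 of the 27998 genes listed in both libraries, for their known part in the suppression of immune cells. They are Arg1, Ass1 and Nos2 of arginine metabolism, Hmox1 of heme breakdown, and Ptgs1, Ptgs2 and Ptges of prostaglandin E2 synthesis. All of them had unique molecular identifiers (UMIs, counted transcripts) in cells of both libraries, from 35 for Nos2 to 19718 for Hmox1 in LTS cells and from 37 to 20771 for the same genes in control cells.

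The LTS library came from Kunming mice that had G422 glioma in the brain, lived over 100 days after a combined therapy and were given the same cells again in the opposite hemisphere. The control library came from untreated Kunming mice whose G422 tumour tissue was taken 7 days after inoculation. G422 is a mouse glioma line, and these are the cells called G422TN in the series title. Day 7 is also given for the LTS library, but the sources used here do not settle from which inoculation it counts, and the agents of the therapy, the ages and the number of animals per library are not given there. Tissue of both groups was digested with collagenase and DNase, and cells from the 70/37% Percoll interphase were loaded on a 3' version 3 droplet kit. With 1 library per group there is no replicate, so no test between the groups was possible. Each ratio below carries an exact 95% interval for counting error alone, which treats UMIs as independent and says nothing of differences between animals or preparations.

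Macrophages use arginine in competing ways. Arginase 1, the product of Arg1, splits arginine into ornithine and urea, inducible nitric oxide synthase from Nos2 turns it into nitric oxide and citrulline, and argininosuccinate synthase from Ass1 takes the first step by which citrulline is made into arginine again. Heme oxygenase 1, encoded by Hmox1, breaks heme into biliverdin, iron and carbon monoxide, and is induced by oxidative stress through the factor Nrf2. The cyclooxygenases COX-1 from Ptgs1, largely constitutive, and COX-2 from Ptgs2, largely inducible, convert arachidonic acid to prostaglandin H2, which the microsomal synthase from Ptges turns into prostaglandin E2. Arginase, heme oxygenase and prostaglandin E2 are known to dampen T cell responses in tumours.

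On the mm10 build with GENCODE M21 annotation, the 7 protein-coding genes lie apart except for 3 on chromosome 2. Ass1 spans chr2:31470207-31520672 on the plus strand, Ptges chr2:30889471-30929863 on the minus strand and Ptgs1 chr2:36230426-36252272 on the plus strand. Ptgs2 spans chr1:150100031-150108227 on the plus strand and Hmox1 chr8:75093621-75100589 on the plus strand. Nos2 spans chr11:78920787-78960254 on the plus strand and Arg1 chr10:24915221-24927484 on the minus strand.

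The promoters of the prostaglandin genes are shown because the class with the highest level differed between both cyclooxygenases, microglia-like cells for Ptgs1 and tumour and endothelial cell-like cells for Ptgs2. Sequences of 4 of the 7 genes were found in the RefSeq promoter table of GRCm38.p6 (Ass1, Ptgs1, Ptgs2 and Ptges), and Arg1, Nos2 and Hmox1 are named only. The 250 bases before the RefSeq start are given 5′ to 3′ on the strand of the gene, with GGGCGG, the core of an Sp1 site, and TTGCGCAA, a C/EBP palindrome, in capitals. The windows are chr2:36230176-36230425 for Ptgs1, chr1:150099781-150100030 for Ptgs2 and chr2:30903298-30903547 for Ptges, the last of which lies inside the GENCODE interval of its gene.
Ptgs1: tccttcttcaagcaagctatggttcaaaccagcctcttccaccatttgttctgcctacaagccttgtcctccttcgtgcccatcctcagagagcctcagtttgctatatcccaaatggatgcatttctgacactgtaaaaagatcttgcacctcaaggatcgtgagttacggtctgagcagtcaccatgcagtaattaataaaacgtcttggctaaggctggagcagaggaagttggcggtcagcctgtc
Ptgs2: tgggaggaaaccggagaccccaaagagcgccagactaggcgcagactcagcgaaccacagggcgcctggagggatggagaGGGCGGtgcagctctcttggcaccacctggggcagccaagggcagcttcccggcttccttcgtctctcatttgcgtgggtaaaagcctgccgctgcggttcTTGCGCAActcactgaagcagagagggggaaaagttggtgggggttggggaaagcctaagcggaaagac
Ptges: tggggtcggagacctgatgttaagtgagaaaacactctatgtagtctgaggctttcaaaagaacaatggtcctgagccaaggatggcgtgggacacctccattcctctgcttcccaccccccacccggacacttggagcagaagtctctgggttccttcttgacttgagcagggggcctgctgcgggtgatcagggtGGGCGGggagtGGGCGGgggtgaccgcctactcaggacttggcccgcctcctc
The Ptgs1 window held 48.0% G and C, against 61.6% for Ptgs2, 59.6% for Ptges and a median of 52.4% over 32851 promoters of the same length. On either strand, GGGCGG was found 0 times for Ptgs1, 1 time for Ptgs2 and 2 times for Ptges, and 32.7% of all promoters held it. TTGCGCAA was found once, in the Ptgs2 window, starting 69 bases before the start, and 0.164% of all promoters held it. Other motifs searched on both strands had no match in these 3 windows: TATAAA (in 12.4% of all promoters), TTAAAA (17.7%), CGTCA (17.8%), CACGTG (6.02%), CATGTG (12.3%), TGAGTCA (4.46%) and GCGTGGGCG (0.536%). Bases after the RefSeq start were not searched, so a motif without a match here may lie outside the window. These matches describe letters, not binding.

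Barcodes with at least 1000 UMIs, at least 300 genes and at most 15% mitochondrially encoded UMIs were kept, 4835 in the LTS library and 8310 in the control library, at a median of 18779 and 14889.5 UMIs. Before this choice the libraries held 149413534 UMIs (LTS) and 165796852 UMIs (control). They shared 13 cell barcodes. The 7 genes and all genes of their pathways were left out of clustering, so that the classes did not rest on them. The LTS library gave 231 monocyte/macrophage-like, 634 microglia-like, 2592 tumour, 483 T cell-like and 74 endothelial cell-like cells, against 429, 766, 5260, 98 and 143 in the control library. The tumour class was named from G422 markers that came from earlier results of these data. The naming rule also required levels of Y-linked transcripts and of Ptprc, a leukocyte gene, under 10% of those in immune clusters. By that rule its Y-linked level was low, at 0.89 (LTS) and 0.965 (control) UMIs per 1000000 (CPM), against 139 and 120 CPM in microglia-like cells. This low level is therefore no separate evidence for the name. Another 644 LTS and 1549 control cells stayed unnamed. Tumour RNA was found in immune cells at a different level in each library, with a summed level of the 10 tumour markers of 200 (LTS) and 752 CPM (control) in monocyte/macrophage-like cells and 224 and 603 CPM in microglia-like cells. From genes foreign to a class, free RNA could make up at most 11.7% (LTS) and 32.9% (control) of the UMIs of monocyte/macrophage-like cells, and 13.1% and 26.4% of those of microglia-like cells.

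Arg1 lay mostly in monocyte/macrophage-like cells. They were 4.78% of LTS and 5.16% of control cells, but held 68.7% of all Arg1 UMIs in LTS cells and 62.6% in control cells. Of the Ass1 UMIs they held 15.4% (LTS) and 9.77% (control), while the far more numerous tumour cells held 68.9% and 79.0%, and Nos2 lay mostly in endothelial cell-like cells. Their Ass1 level was 1.94-fold higher in the LTS library, their Hmox1 level 1.65-fold higher and their Arg1 level close to that of the control library. Microglia-like cells had the highest Hmox1 and Ptgs1 levels, while Ptgs2 and Ptges UMIs lay mostly in tumour cells. Of the 7 genes, 2 lay past 1.5-fold in monocyte/macrophage-like cells, 2 in microglia-like cells and 0 in tumour cells, measured as log2 of CPM with 5 added. Past the same limit lay 12.2%, 3.29% and 0.248% of all genes with a UMI in these classes. In monocyte/macrophage-like cells 3.44% of all genes lay past it in the higher and 8.78% in the lower direction, and in microglia-like cells 0.982% and 2.31%. The 2 members of the first class (Ass1 and Hmox1) were higher in the LTS library, and the 2 of the second (Arg1 and Ptges) lower. Without the richest cells Ass1 was at 1.95-fold and Hmox1 at 1.27-fold, 15 of the 18 microglial Arg1 UMIs lay in 1 control cell, and microglial Ptges did not exceed its limit for free RNA.

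**Figure D1:**
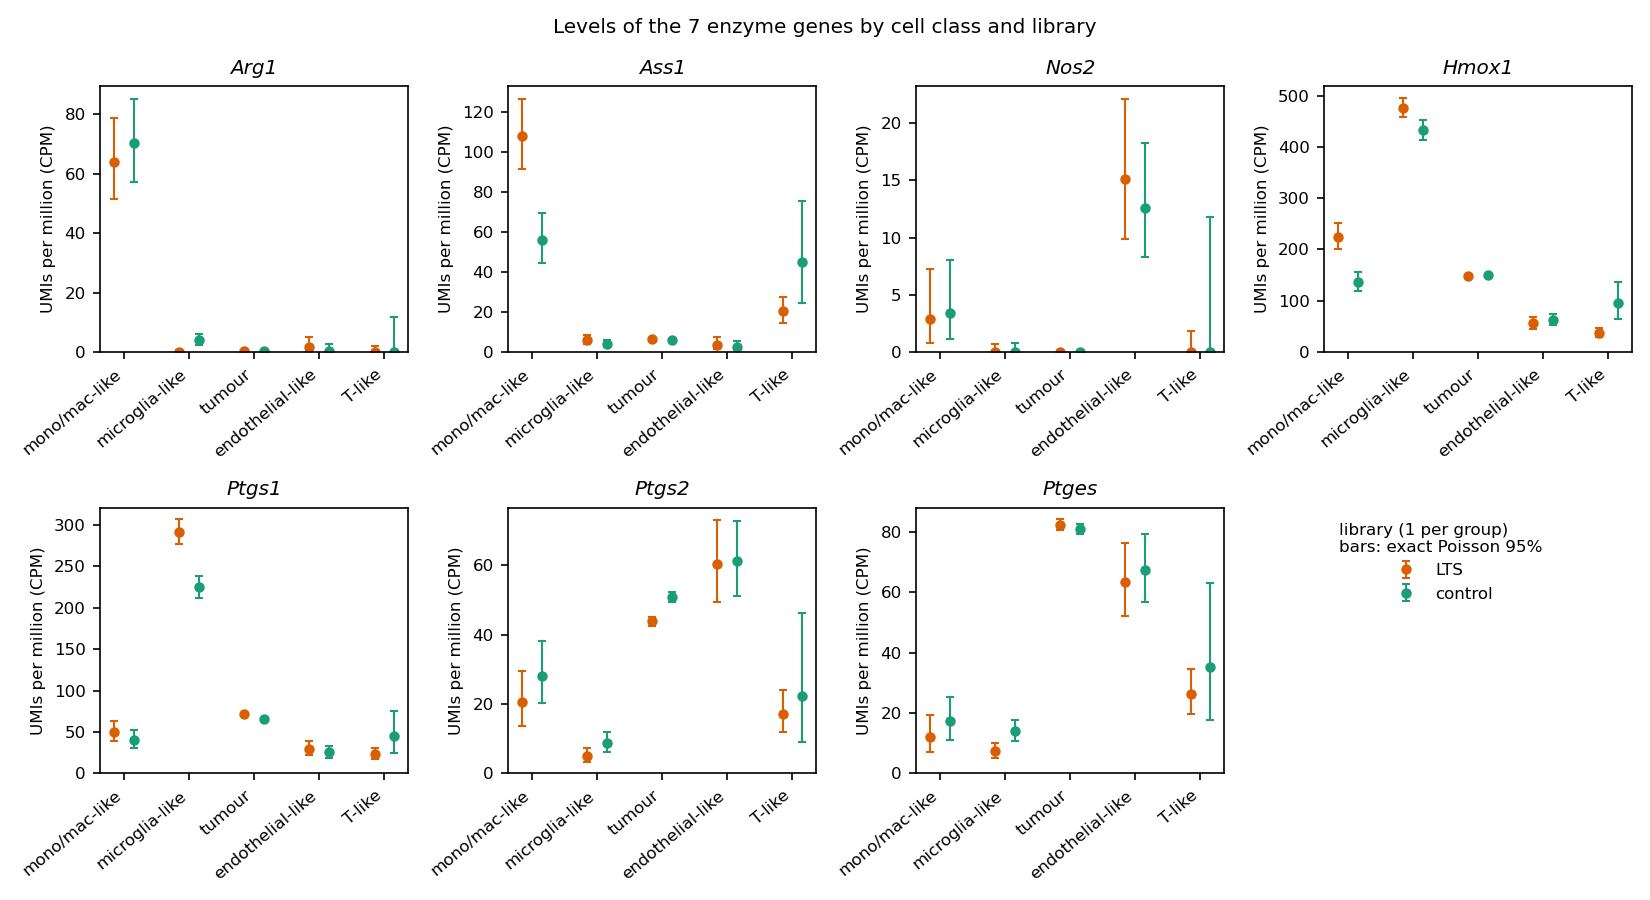
Level of each gene in CPM (vertical axes, linear, each from 0) in 5 cell classes, with the LTS library in orange left of the control library in green and exact Poisson 95% bars for counting error. Arg1 in both libraries and Ass1 in the LTS library stand out in monocyte/macrophage-like cells, Nos2 in endothelial cell-like cells, Hmox1 and Ptgs1 in microglia-like cells, and Ptgs2 and Ptges in tumour and endothelial cell-like cells.

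Arg1 had 90 UMIs in 231 LTS and 102 UMIs in 429 control monocyte/macrophage-like cells, or 64.0 CPM (51.4 to 78.6) and 70.2 CPM (57.3 to 85.2). The LTS over control ratio was 0.911 (0.679 to 1.22), an interval that holds 1. Few cells made up this level. Only 15 of 231 LTS cells (6.49%, exact binomial 3.68% to 10.5%) and 31 of 429 control cells (7.23%, 4.96% to 10.1%) had an Arg1 UMI, although the median cell held 5426 (LTS) and 3056 (control) UMIs. T cell-like cells, which should lack the gene, had 0 UMIs in 483 LTS and 98 control cells, at medians of 3250 and 2121 UMIs, which allows shares of cells with a UMI of up to 0.621% and 3.06%. A single LTS cell held 28 UMIs, 31.1% of the sum, and the 5 richest held 75.6%. In the control library the richest cell held 10 UMIs, 9.80% of the sum, and the 5 richest held 45.1%. Without the richest cell of each library the ratio was 0.701 (0.499 to 0.978), so 1 LTS cell decides whether the interval holds 1.

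Cells with Arg1 differed in other genes, described here for genes chosen after their values were seen. Ccl24, an eosinophil chemokine, was at 835 CPM in Arg1-positive and 34.7 CPM in Arg1-negative monocyte/macrophage-like cells of the LTS library, and at 194 and 30.5 CPM in those of the control library. Hmox1 was at 771 and 179 CPM in the same LTS cells and at 277 and 125 CPM in the control cells. The share of cells with an Hmox1 UMI was closer, 40.0% (6 of 15) and 32.9% in LTS and 29.0% and 24.4% in control cells, so the gap lay more in UMIs per cell than in the share of cells. The 4 LTS cells with 10 or more Hmox1 UMIs held 61.1% of its UMIs in the class, and the 3 such control cells held 27.3%. The Hmox1 gap can therefore rest on single cells and is not read as a trait of Arg1-positive cells. Ass1 did not follow Arg1, at 110 and 108 CPM in LTS and 46.1 and 56.5 CPM in control cells. Thbs1, a matrix glycoprotein, was at 229 and 109 CPM in LTS and 286 and 112 CPM in control cells. The median depths of Arg1-positive and Arg1-negative cells were 5824 and 5269 UMIs in the LTS library and 3171 and 3050 UMIs in the control library.

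Outside this class Arg1 was nearly absent. Microglia-like cells had 0 UMIs in 634 LTS cells, which allows a share of cells with a UMI of up to 0.473%, and 18 UMIs in 2 of 766 control cells. Of these 18, 15 lay in 1 cell, which also held 14 UMIs of tumour markers. Tumour cells had 19 LTS UMIs, each in a cell of its own, and 25 control UMIs in 24 cells. The control count of microglia-like cells thus rests almost wholly on 1 cell, and no ratio is given.

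Ass1 had 152 UMIs in LTS and 81 UMIs in control monocyte/macrophage-like cells, or 108 CPM (91.6 to 127) and 55.8 CPM (44.3 to 69.3). The ratio was 1.94 (1.47 to 2.57). The counts were spread: the richest cell held 3.29% (LTS) and 3.70% (control) of the UMIs, and 23 and 21 cells held 50% of them. Without the richest cells the ratio was 1.95 (1.47 to 2.60). An Ass1 UMI was found in 37.2% of LTS and 14.2% of control cells, and in 10.8% (7.13% to 15.6%) and 6.29% (4.19% to 9.03%) after each cell was thinned to 1000 UMIs. T cell-like cells, thinned in the same way, gave 1.04% (0.337% to 2.40%) in LTS and 3.06% (0.636% to 8.69%) in control cells. The LTS monocyte/macrophage-like share lies above that level, while in the control library the intervals overlap.

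The Ass1 difference was found in both subsets of the class. Among cells without a Ly6c2 UMI, a gene of inflammatory monocytes, Ass1 was at 94.4 CPM in 95 LTS cells and 35.9 CPM in 186 control cells, a ratio of 2.63 (1.64 to 4.32). Among cells with a Ly6c2 UMI it was at 121 CPM in 136 LTS cells and 75.5 CPM in 243 control cells, a ratio of 1.60 (1.13 to 2.28). The split is a range and not a cell type, since 21 LTS and 37 control cells held exactly 1 Ly6c2 UMI. The intervals of both ratios overlap, and their difference was not tested. Ass1 was at 5.99 (LTS) and 3.92 (control) CPM in microglia-like cells and 6.37 and 5.91 CPM in tumour cells. The 32 LTS and 18 control UMIs of microglia-like cells compare with up to 7.12 and 11.9 UMIs that free RNA could give. T cell-like cells had 20.2 CPM (LTS) and 44.9 CPM (control), from 40 and 14 UMIs, and the LTS cell richest in Ass1 there had a doublet score of 0.477. The control T cell-like level lies inside the interval of the control monocyte/macrophage-like cells. The few conventional dendritic cell-like cells, 19 LTS and 18 control, had 97.9 and 48.9 CPM from 13 and 4 UMIs.

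Nos2 was rare, with 35 UMIs in all LTS cells and 37 in all control cells. Most of them, 26 (74.3%) in the LTS and 27 (73.0%) in the control library, lay in endothelial cell-like cells. There Nos2 was at 15.1 CPM (9.87 to 22.1) in LTS cells and 12.5 CPM (8.27 to 18.3) in control cells, and 16 of 74 LTS and 23 of 143 control cells had a UMI. Monocyte/macrophage-like cells had 4 LTS UMIs in 3 cells and 5 control UMIs in 4 cells, a ratio of 0.826 (0.164 to 3.84). Microglia-like cells had 0 UMIs in 634 LTS and 766 control cells, which allows shares of cells with a UMI of up to 0.473% and 0.392%. At a level as low as that of endothelial cell-like cells most cells would give no UMI, so this does not limit the share that express Nos2. Tumour cells had 3 UMIs in 1 LTS cell and 4 UMIs in 4 control cells. A difference in Nos2 between the libraries was not detectable at this depth in any of these classes. The endothelial cells with Nos2 were also the deeper ones, at a median of 34508 UMIs against 13636 without it in LTS, and 17054 against 10917 in control cells.

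Partners of the arginine enzymes were read from a list of 30 genes, of which 20 reached 20 CPM in either library in monocyte/macrophage-like cells. Of these 20, 2 were past 1.5-fold higher (Ass1 and Slc7a2) and 5 lower (Odc1, Oat, Srm, Sms and Prmt1) in the LTS library, beside 2.61% higher and 9.45% lower of all genes at this level. Slc7a2, an arginine transporter, had 26.3 CPM in LTS cells and 8.95 CPM in control cells, a ratio of 2.94 (1.53 to 6.03) from 37 and 13 UMIs. The enzymes that carry ornithine on to polyamines were lower: Odc1, ornithine decarboxylase, had 42.7 CPM in LTS cells and 92.9 CPM in control cells (ratio 0.459, 0.333 to 0.627), and Srm, spermidine synthase, had 27.7 and 86.7 CPM (0.320, 0.217 to 0.461). Prmt1, an arginine methyltransferase of proteins, had 83.9 and 149 CPM (0.564, 0.447 to 0.709). These 3 genes are also abundant in tumour cells, where Odc1 was at 270 CPM in LTS cells and 274 CPM in control cells, Srm at 213 and 228 CPM and Prmt1 at 296 and 312 CPM. The part of tumour free RNA in their lower LTS level was not tested gene by gene. Arg2, the mitochondrial arginase, was at 47.6 CPM in LTS cells and 41.3 CPM in control cells (1.15, 0.802 to 1.66). In microglia-like cells 0 of 16 list genes at this level lay past 1.5-fold, and in tumour cells 0 of 15.

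**Figure D2:**
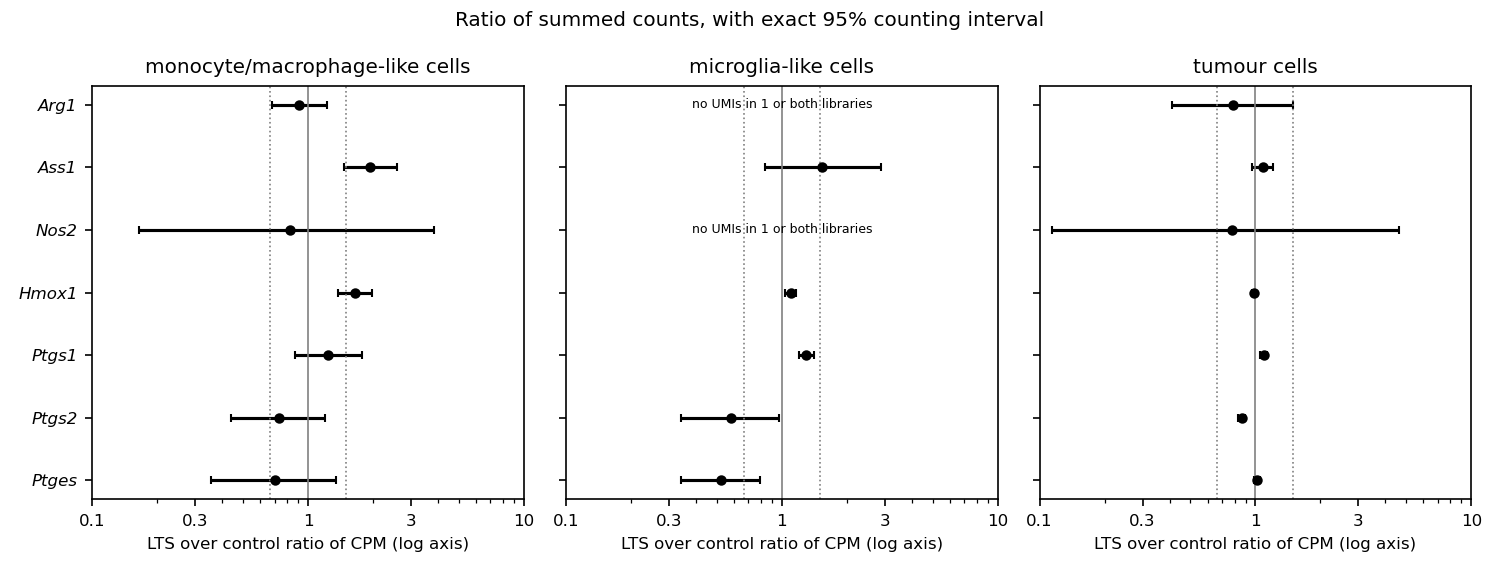
LTS over control ratio of CPM (horizontal log axis) for the 7 genes in 3 classes, with exact 95% counting intervals. The solid line marks 1 and the dotted lines 1.5-fold either way. In monocyte/macrophage-like cells Ass1 (1.94) and Hmox1 (1.65) lie right of the dotted line, and in tumour cells every gene with over 100 UMIs lies between the dotted lines.

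Hmox1 was highest in microglia-like cells. They had 2546 UMIs in the LTS and 1991 in the control library, or 477 CPM (458 to 496) and 433 CPM (414 to 453), and the ratio was 1.10 (1.04 to 1.17). Monocyte/macrophage-like cells had 225 CPM (201 to 251) in LTS cells and 136 CPM (118 to 157) in control cells, and tumour cells 148 CPM (146 to 150) and 150 CPM (148 to 152). In control cells the intervals of these last classes overlap, while in LTS cells they do not. The LTS level of monocyte/macrophage-like cells rests in good part on a single cell, described below, so no order of these classes is read from it. Endothelial cell-like cells, at 56.3 (LTS) and 61.8 CPM (control), lay below all 3. T cell-like cells had 37.9 and 96.2 CPM, from 75 and 30 UMIs, and the richest cell there had a doublet score of 0.404 in the LTS and 0.303 in the control library.

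The Hmox1 ratio of monocyte/macrophage-like cells was 1.65 (1.38 to 1.98), from 316 LTS and 198 control UMIs. A single LTS cell held 99 of the 316 UMIs, 31.3%, and 2 LTS cells held 50%, against 11.1% in the richest control cell and 18 cells for 50%. Without the richest cell of each library the ratio was 1.27 (1.04 to 1.56), so this cell carries the value past 1.5-fold. The share of cells with an Hmox1 UMI, thinned to 1000 UMIs, was 8.23% (5.03% to 12.6%) in LTS and 9.32% (6.75% to 12.5%) in control cells. It was 3.73% in LTS and 8.16% in control T cell-like cells. The control shares of both classes are thus near each other, but the T cell-like share is not a free RNA level for monocyte/macrophage-like cells. Free RNA could make up at most 57.5% of the UMIs of control T cell-like cells and 32.9% of those of control monocyte/macrophage-like cells. The intervals of the LTS and control monocyte/macrophage-like shares overlap, and no direction is read from them. As a sum, the 4 LTS cells with 10 or more Hmox1 UMIs had 945 CPM of Arg1 and those without Hmox1 43.5 CPM. The 3 such control cells had 603 CPM against 57.9 CPM. Sums of so few cells can rest on 1 cell, and they do not show that the cell richest in Hmox1 held Arg1.

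In microglia-like cells the concentration was larger in number of UMIs. The fewest cells holding 50% of the Hmox1 UMIs were 10 of 634 in the LTS and 20 of 766 in the control library. Cells with 10 or more UMIs were 34 (5.36%) in LTS and 50 (6.53%) in control, and held 83.5% and 76.3% of all Hmox1 UMIs of the class. The richest cell held 245 UMIs (LTS) and 119 UMIs (control). With each cell weighed equally, the mean was 324 CPM in LTS cells and 338 CPM in control cells, which turns the small LTS excess round. The thinned share was 10.9% (8.57% to 13.6%) in LTS and 16.3% (13.8% to 19.1%) in control cells, against the CPM, so no order is read from it.

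Microglia-like cells formed 2 clusters, and these differed more in Hmox1 than the libraries did. Cluster 3, with 409 LTS and 759 control cells, had 540 CPM (519 to 561) in LTS cells and 435 CPM (416 to 454) in control cells, a ratio of 1.24. Cluster 14, led by P2ry12 and Btg2, had 225 LTS but only 7 control cells, and Hmox1 was at 61.1 CPM (44.2 to 82.3) in its LTS cells. Its 7 control cells had 0 UMIs. Because cluster 14 is almost wholly of 1 library, its own level and the library cannot be told apart. It was also shallow, at a median of 2973 UMIs in LTS cells against 10847 in the LTS cells of cluster 3.

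**Figure D3:**
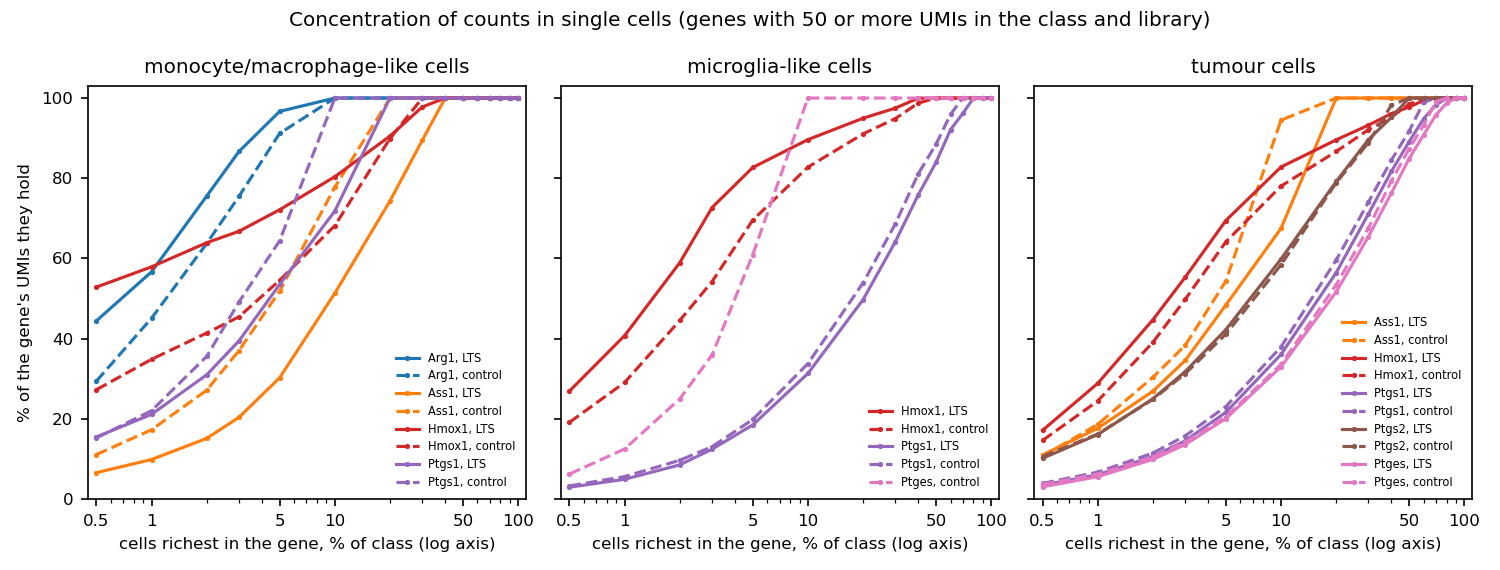
Share of a gene's UMIs (vertical axis, %) held by the cells richest in it (horizontal log axis, % of the cells of the class), for genes with 50 or more UMIs, with LTS solid and control dashed. Each % of cells was rounded up to whole cells. Arg1 and Hmox1 rise steeply at the left, while Ptgs1 in microglia-like cells and Ptgs1 and Ptges in tumour cells rise slowly. In LTS monocyte/macrophage-like cells Ass1 is the most evenly spread of the 4 genes drawn.

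Tumour cells held 80.2% of the Hmox1 UMIs of LTS cells and 79.9% of those of control cells. Their ratio was 0.989 (0.967 to 1.01). Hmox1 was uneven here too, since 65 of 2592 LTS and 160 of 5260 control cells held 50% of the UMIs. Cells with 10 or more UMIs were 220 (8.49%) in LTS and 367 (6.98%) in control and held 80.8% and 72.2% of the UMIs, at median depths of 49276 and 24190 UMIs.

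The 9 tumour clusters differed widely in Hmox1, from 48.2 to 718 CPM in LTS and from 45.6 to 263 CPM in control cells. Cluster 16, a group of 31 LTS and 68 control cells led by Il11, Mmp3, Areg and Inhba, was highest, at 718 CPM (671 to 768) in LTS cells and 263 CPM (236 to 293) in control cells. Its ratio was 2.73 (2.40 to 3.11), and 2.47 (2.14 to 2.86) without the richest cells, although 3 LTS cells held 50% of its 853 UMIs and 5 control cells 50% of its 335. Cluster 6, led by Il11 and histone genes, had 280 CPM in LTS cells and 249 CPM in control cells. Clusters 5 and 11, led by or holding interferon-induced genes such as Ifit1, Ifi44 and Isg15, were lowest, at 48.5 and 73.8 CPM (cluster 5) and 48.2 and 45.6 CPM (cluster 11) in LTS and control cells. The ratio of cluster 5 was 0.657 (0.594 to 0.726). Across the clusters, 5 were higher and 4 lower in the LTS library, and the counting interval excluded 1 in 3 and 3 of them.

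Hmox1-rich cells shared other genes of iron and oxidative stress in both libraries, given as a description of cells picked by Hmox1 itself. In microglia-like cells, Gclm, a subunit of glutamate cysteine ligase, was at 343 CPM in LTS cells with 10 or more Hmox1 UMIs and 32.1 CPM in those with none, and at 285 and 35.9 CPM in control cells. Slc40a1, the iron exporter ferroportin, was at 207 and 35.1 CPM in LTS and 184 and 11.5 CPM in control cells. Slc48a1, a heme transporter, was at 162 and 27.8 CPM in LTS and 133 and 30.6 CPM in control cells. Fth1, ferritin heavy chain, was at 21330 and 5855 CPM in LTS and 19780 and 5905 CPM in control cells. Nqo1, another known target of Nrf2, was at 0 CPM in both LTS sets and at 2.42 and 0.443 CPM in control cells. Ptgs1 ran the other way, at 220 and 350 CPM in LTS and 162 and 246 CPM in control cells. The rich cells were deeper, at median depths of 16636 UMIs against 3933 in LTS and 7707 against 4844 in control cells.

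In tumour cells the leading genes were in part different. Slc7a11, the cystine transporter, was at 152 CPM in Hmox1-rich and 34.2 CPM in Hmox1-negative LTS cells, and at 141 and 30.3 CPM in control cells. Gclm was at 240 and 62.6 CPM in LTS and 238 and 67.3 CPM in control cells, and Srxn1, sulfiredoxin, at 102 and 28.4 CPM and 99.4 and 27.2 CPM. Il11, a cytokine that also marks the tumour class, was at 98.7 and 16.3 CPM in LTS and 75.0 and 24.3 CPM in control cells. Slc40a1 stayed under 1 CPM in every tumour set.

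**Figure D4:**
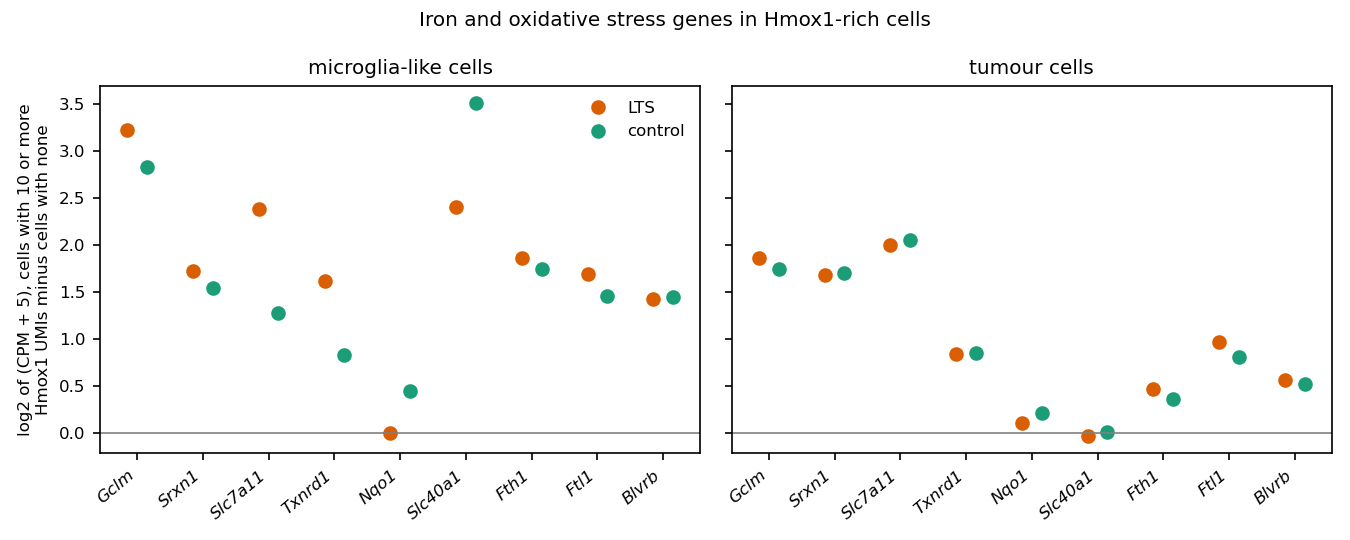
Difference in log2 of CPM with 5 added between cells with 10 or more Hmox1 UMIs and cells with none (vertical axis), for 9 iron and oxidative stress genes, with LTS in orange left of control in green. Gclm, Srxn1 and Slc7a11 lie above 1 in both classes and libraries, Slc40a1 does so only in microglia-like cells, and Nqo1 lies near 0.

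Of a list of 36 heme, iron and Nrf2 genes, 35 were in the files. In monocyte/macrophage-like cells 22 reached 20 CPM, and 1 of them, Hmox1 itself, lay past 1.5-fold, in the higher direction. In microglia-like cells it was 1 of 23, Slc40a1, at 45.3 CPM in LTS cells and 27.9 CPM in control cells (ratio 1.63, 1.31 to 2.03). Of all genes at this level 1.24% lay past 1.5-fold higher in microglia-like cells, and 2.58% lower. In tumour cells 0 of 25 lay past 1.5-fold, beside 0.42% of all genes at this level. The constitutive heme oxygenase Hmox2 was at 104 CPM in LTS cells and 108 CPM in control monocyte/macrophage-like cells (0.960, 0.761 to 1.21). Fth1 was at 21050 and 16910 CPM there (1.25, 1.22 to 1.27), and biliverdin reductase Blvrb at 119 and 110 CPM (1.09, 0.868 to 1.36).

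Ptgs1 was highest in microglia-like cells, at 292 CPM (277 to 307) in LTS cells and 225 CPM (211 to 239) in control cells. The ratio was 1.30 (1.20 to 1.41). Unlike Hmox1, Ptgs1 was spread over the class: 79.5% of LTS and 65.5% of control cells had a UMI, 128 and 134 cells held 50% of the UMIs, and the richest cell held 0.834% and 0.968%. After thinning, the share was 29.7% (26.1% to 33.4%) in LTS and 18.9% (16.2% to 21.9%) in control cells, above the 2.48% of thinned LTS T cell-like cells and the 0 of 98 control ones, which allow up to 3.06%. Tumour cells had 71.6 (LTS) and 65.7 CPM (control), and monocyte/macrophage-like cells 50.5 CPM (39.4 to 63.7) and 40.6 CPM (30.9 to 52.4). T cell-like cells had 23.3 CPM in LTS cells and 44.9 CPM in control cells, from 14 UMIs in control, so the order below tumour cells differs between the libraries.

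The higher Ptgs1 level of LTS microglia-like cells lay mostly in cluster 14. This cluster had 651 CPM (592 to 713) from 458 UMIs in its 225 LTS cells, and 493 CPM (213 to 972) from 8 UMIs in its 7 control cells. In cluster 3, found in both libraries, Ptgs1 was at 237 CPM (223 to 252) in LTS cells and 224 CPM (210 to 238) in control cells, and the intervals overlap. With every cell weighed equally, the class mean was 398 CPM in LTS cells and 239 CPM in control cells, past 1.5-fold. The cluster pattern was thus opposite for Hmox1 and Ptgs1: within the LTS library, cluster 14 had the lower Hmox1 and the higher Ptgs1 level. In tumour cells Ptgs1 had a ratio of 1.09 (1.06 to 1.13), with 7 of 9 clusters higher in the LTS library and cluster ratios of 0.839 to 1.18.

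Ptgs2 lay mostly in tumour cells. Endothelial cell-like cells had a higher level, but in the LTS library over 50% of their UMIs lay in a single cell. Tumour cells held 92.0% of its UMIs in LTS and 92.3% in control cells, and had 43.9 CPM (42.6 to 45.2) in LTS cells and 50.9 CPM (49.5 to 52.2) in control cells. The ratio was 0.863 (0.830 to 0.897), the lowest of the 5 genes with over 100 UMIs in this class. The count was spread over 180 of 2592 LTS and 381 of 5260 control cells at the 50% mark. Of the 9 tumour clusters, 6 were lower in the LTS library, 5 of them with an interval below 1, and the cluster ratios ran from 0.653 to 1.13. Cluster 16 again had the highest level, at 146 CPM in LTS cells and 223 CPM in control cells (0.653, 0.537 to 0.792), so that in these cells Ptgs2 was lower and Hmox1 higher in the LTS library. Cluster 6 went the other way, at 67.2 and 59.3 CPM (1.13, 1.04 to 1.24).

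**Figure D5:**
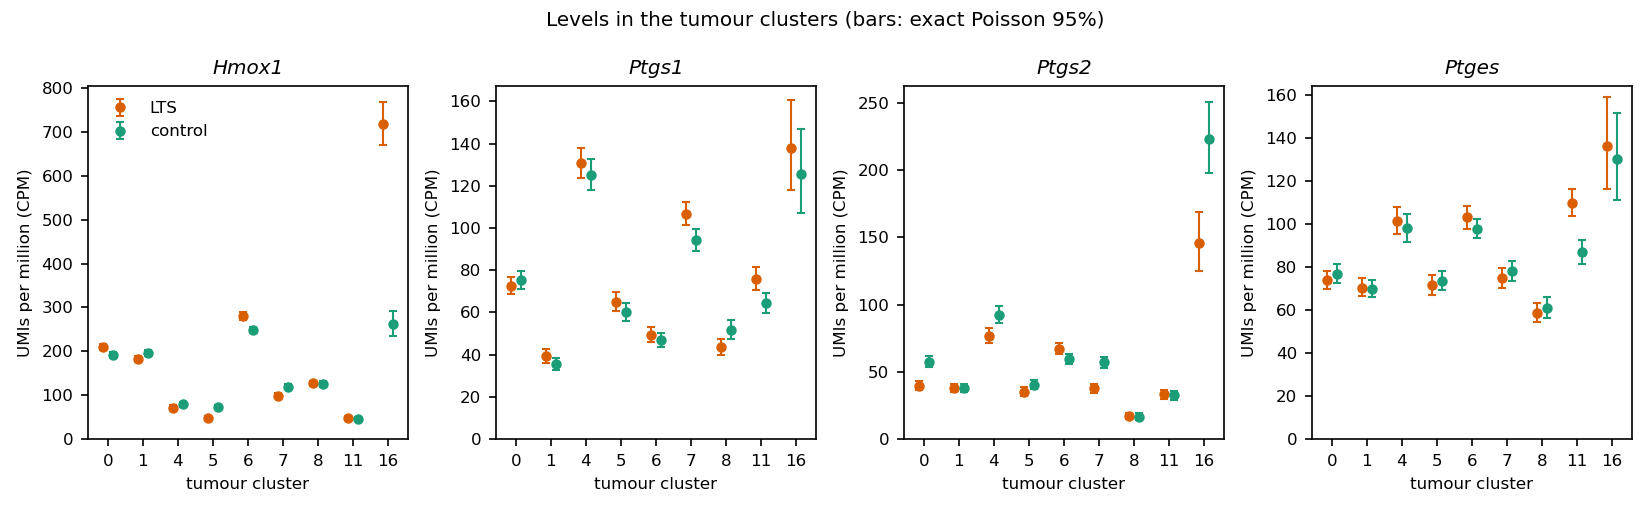
Level in CPM (vertical axes, linear, from 0) of 4 genes in the 9 tumour clusters (horizontal axis, cluster number), LTS in orange left of control in green, with exact Poisson 95% bars. Cluster 16 has the highest Hmox1, Ptgs1, Ptgs2 and Ptges levels in the LTS library. Its Hmox1 is at 718 CPM in LTS cells and 263 CPM in control cells, and its Ptgs2 at 146 and 223 CPM.

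In endothelial cell-like cells Ptgs2 was at 60.4 CPM in LTS cells and 61.3 CPM in control cells (0.985, 0.754 to 1.28). A single LTS cell held 54 of its 104 UMIs there, and without the richest cells the ratio was 0.562 (0.395 to 0.791). Free RNA could make up at most 47.8% (LTS) and 42.9% (control) of the UMIs of endothelial cell-like cells. The part of tumour free RNA in their Ptgs2 level was not tested. In microglia-like cells Ptgs2 did not exceed the limit for free RNA. Microglia-like cells had 27 UMIs in LTS and 40 in control cells, against up to 38.1 and 54.4 UMIs that free RNA could give. Monocyte/macrophage-like cells had 29 LTS and 41 control UMIs, above the limits of 8.95 and 21.4, or 20.6 CPM and 28.2 CPM (0.730, 0.438 to 1.20). Their thinned shares with a UMI, 2.17% in LTS and 3.03% in control cells, compare with 0.828% and 2.04% in T cell-like cells.

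Ptges lay in the same cells as Ptgs2 and did not share its lower LTS level. Tumour cells held 94.4% of its UMIs in LTS and 93.6% in control cells, and had 82.3 CPM (80.6 to 84.0) in LTS cells and 81.0 CPM (79.3 to 82.7) in control cells, a ratio of 1.02 (0.987 to 1.05). A UMI was found in 84.3% of LTS and 71.6% of control tumour cells, at median depths of 40528 and 20148 UMIs, and in 7.60% and 7.24% after thinning. Its cluster ratios ran from 0.958 to 1.26, and cluster 11 alone had an interval that excluded 1, at 110 CPM in LTS cells and 87.0 CPM in control cells. Endothelial cell-like cells had 63.3 and 67.4 CPM, where free RNA could make up at most 47.8% (LTS) and 42.9% (control) of all UMIs. In microglia-like cells, 39 LTS and 64 control UMIs gave 7.30 and 13.9 CPM and a ratio of 0.524 (0.343 to 0.793), past 1.5-fold lower. Free RNA could give up to 46.0 and 71.8 UMIs there, more than were counted, so no difference is read from this ratio. Monocyte/macrophage-like cells had 17 LTS and 25 control UMIs against up to 10.8 and 28.3.

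Ptges was found more often in tumour cells that also held Ptgs2. Of LTS tumour cells with a Ptgs2 UMI 90.1% also had a Ptges UMI, against 78.9% of those without Ptgs2, and in the control library the shares were 76.0% and 68.4%. Ptgs2-positive cells were also deeper, at median depths of 45041 against 37005 UMIs in LTS and 21620 against 19138 UMIs in control cells. The part of depth in this was not tested.

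Of 39 prostaglandin and eicosanoid genes, 17 reached 20 CPM in monocyte/macrophage-like cells, with 2 past 1.5-fold higher (Ptger4 and Daglb) and 1 lower (Anxa1) in the LTS library, beside 2.61% and 9.45% of all genes at this level. Ptger4, the EP4 receptor of prostaglandin E2, had 40.5 CPM in LTS cells and 18.6 CPM in control cells, a ratio of 2.18 (1.36 to 3.59) from 57 and 27 UMIs. In microglia-like cells the same receptor was at 11.2 and 16.3 CPM (0.688, 0.482 to 0.979). Daglb, a diacylglycerol lipase that supplies arachidonate by way of 2-arachidonoylglycerol, had 58.3 CPM in LTS cells and 36.5 CPM in control cells (1.60, 1.12 to 2.30). Anxa1, annexin A1, known as an inhibitor of phospholipase A2, had 105 and 238 CPM in monocyte/macrophage-like cells (0.439, 0.359 to 0.534) and 36.9 and 104 CPM in microglia-like cells (0.354, 0.298 to 0.419). Anxa1 is also abundant in tumour cells, at 580 CPM in LTS cells and 636 CPM in control cells. The part of tumour free RNA in its lower LTS level was not tested.

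In microglia-like cells 16 genes of the list reached 20 CPM, with 0 past 1.5-fold higher and Anxa1 alone lower, beside 1.24% and 2.58% of all genes at this level, and in tumour cells it was 0 of 10. Other synthases that use the product of COX-1 lay within 1.5-fold in these cells, of which cluster 14 held 225 LTS and 7 control cells. Hpgds, which makes prostaglandin D2, had 340 CPM in LTS cells and 266 CPM in control cells (1.28, 1.19 to 1.38), and Tbxas1, thromboxane synthase, had 132 and 114 CPM (1.16, 1.03 to 1.30). Ptges2 and Ptges3, further prostaglandin E synthases, had ratios of 0.717 (0.492 to 1.04) and 0.948 (0.870 to 1.03). Hpgd, which inactivates prostaglandins, had 11.6 and 5.44 CPM (2.13, 1.32 to 3.54), from 62 and 25 UMIs.

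Genes of tissue dissociation stress, read as a check on handling, differed in part between the libraries in microglia-like cells. Of 15 at 20 CPM or more, 3 were past 1.5-fold higher in LTS cells: Fosb at 210 and 128 CPM, Jund at 509 and 304 CPM and Dusp1 at 134 and 82.3 CPM in LTS and control cells. Of all genes at this level 1.24% were past 1.5-fold higher, and cluster 14 holds 225 LTS but 7 control cells of this class. The list had a median log2 ratio of 0.28 there, against -0.02 over all genes at this level. Hsp90aa1 and Hspa8 lay the other way within 1.5-fold, at 710 and 844 CPM and at 1333 and 1510 CPM in LTS and control cells. Hspa1a and Hspa1b, under 20 CPM, had 81 and 41 UMIs in LTS cells and 10 and 2 UMIs in control cells. In monocyte/macrophage-like cells 1 of 16 was higher, Dusp1 at 463 and 307 CPM, and 1 lower, Hsp90aa1 at 405 and 615 CPM, with a median of 0.19 against -0.05. In tumour cells 0 of 9 lay past 1.5-fold and the median was -0.03. The part of this in the Ass1, Hmox1 and Ptgs1 values was not tested.

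The genes whose level followed 5 of the enzymes most closely over 6 points, 3 classes in 2 libraries, were named as a description among 4754 genes. Median depths of these points ran from 3056 to 40528 UMIs. For Ass1 they were Dennd1b, Mrpl23 and Cers6 (Pearson r of log2 of CPM with 5 added of 0.996 or more), for Hmox1 Bhlhe41, Ndufs8 and Rab14 (0.994 or more), and for Ptgs1 Nek7, Cd81 and Nrp1 (0.995 or more). For Arg1 they were Pitpna, Cript and Creb5 (0.995 or more), and for Ptges Prnp, Cth and Tpm1 (0.999 or more). For Ptges 181 genes passed 0.99, and for the rest from 5 (Hmox1) to 15 (Ptgs1). So few points say little of any single gene. Nos2 was too low to be compared.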

How the data were processed

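The deposited values were UMI counts per gene and barcode, not normalized, per the file headers from Cell Ranger 4, and per the submitters' processing notes on build mm10, with no annotation release stated. Both files listed all 6794880 barcodes of the kit, so cells were called here at 1000 UMIs, 300 genes and 15% mitochondrially encoded UMIs, which removed 1 LTS and 0 control barcodes for few genes and 604 and 817 for mitochondrial share. Both libraries were clustered together (scanpy 1.11.5, leidenalg 0.10.2, python 3.11.15): 1966 variable genes without receptor segments, members and pathway genes, 30 principal components, 15 neighbours, resolution 1, which gave 22 clusters. Clusters were named from marker lists when at least 3 markers stood out. The tumour name also required Y-linked and Ptprc levels under 10% of those of immune clusters. Scrublet called 85 LTS cells and 1 of 8310 control cells as doublets, so it was taken not to have worked in the control library and no cell was removed; a cluster with a median score over 0.2 stayed unnamed.

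Counts were summed per class and library and scaled to CPM. Ratios carry exact conditional intervals, levels exact Poisson intervals and shares exact binomial (Clopper-Pearson) intervals, all at 95% and for counting error only. A count of 0 allows a share of up to 3 counts of the cells. Past 1.5-fold was read from log2 of CPM with 5 added. Free RNA was estimated from barcodes of 1 to 100 UMIs and scaled by genes foreign to the class, as an upper limit. For thinned shares each cell was thinned to 1000 UMIs, which left out no cell. Summing and ratios were tested on simulated counts. The members, marker and pathway lists were chosen with earlier results of these data known. From the lists, up to 3 genes per direction with 50 CPM or more and the largest ratio past 1.5-fold were named, besides partner enzymes, transporters and receptors, and the genes most like Ptgs2 in level are not reported here; the genes described in Arg1-positive and Hmox1-rich cells were chosen after their values were seen. Alternatives were another scaling, pseudocount, filter, cell weight, depth and mitochondrial limit, free RNA taken off, doublet scores, a finer clustering, and leaving out the richest cell.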

Additional observations from a re-analysis of the deposited data

Results flagged for a closer look

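In cells left out of the named classes, Hmox1 was past 1.5-fold in 2 groups, in opposite directions. In the unnamed cluster with microglia markers and few UMIs, 341 LTS and 251 control UMIs gave 574 and 363 CPM, a ratio of 1.58. In the unnamed cluster of high doublet scores, 399 LTS and 1317 control UMIs gave 128 and 353 CPM, a ratio of 0.362. These cells entered none of the comparisons above, and the causes were not tested.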

How the results depend on the processing

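Of 207 recomputed log2 ratios of single members, 185 were counted as moving by less than their counting error, 22 moved by more, and 0 called values changed direction. The 185 include Nos2 in microglia-like cells, which had 0 UMIs in both libraries. Its ratio has no counting error and could not move. Without the richest cell of each library, members past 1.5-fold were 1 in place of 2 in monocyte/macrophage-like cells (Ass1) and 1 in place of 2 in microglia-like cells (Ptges). In microglia-like cells the count was 0 among members of at least 20 CPM and 1 with cells weighed equally (Ptgs1). With no CPM minimum, 18 in place of 11 pathway genes lay past 1.5-fold in monocyte/macrophage-like cells and 9 in place of 5 in microglia-like cells, where equal weights gave 18. Without thinning, 5 in place of 3 members had a higher LTS share of monocyte/macrophage-like cells with a UMI, and 6 in place of 2 of tumour cells, which were deeper in the LTS library. With free RNA taken off, the Ptges log2 ratio was 1.00 in place of -0.38 in monocyte/macrophage-like cells and 0.00 in place of -0.62 in microglia-like cells. Counts under the free RNA limit were set to 0, which befell Ptges in control monocyte/macrophage-like cells and in microglia-like cells of both libraries. Both values thus come from that floor and the 5 CPM added, and no difference or equality is read from them. The Hmox1 log2 ratio of microglia-like cells was -0.06 with equal weights and -0.02 with free RNA taken off, in place of 0.14. Keeping only the microglia-like cluster of both libraries, chosen after seeing the data, gave log2 ratios of 0.31 for Hmox1 and 0.08 for Ptgs1. Median-of-ratios scaling took off a median log2 ratio of -0.05, -0.02 and -0.01 in monocyte/macrophage-like, microglia-like and tumour cells, which raised the LTS over control ratios slightly. The cause was not tested where none is named. No paired analysis was possible because each group has 1 library. Depth limits Nos2, and library and group cannot be told apart.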
